A study of Mus musculus with 23 samples.

Results

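Type II pneumocytes (AT2 cells), the surfactant-producing cells of the alveolus, were followed through alveolarization, the postnatal period in which the lung's air sacs are divided into smaller alveoli. The comparison takes the AT2 samples of postnatal days 14 and 28 (P14 and P28, late, 5 samples) minus those of postnatal days 1 and 7 (P1 and P7, early, 4 samples). These 9 samples are the columns of the deposited table that the labels describe as CD326-sorted cells of the 4 stages, out of 23 samples in the series. CD326 (EpCAM) is carried by lung epithelial cells in general. The mice were wild-type C57BL6 at every stage. Nothing in the labels ties a sample to an animal of its own, and a p-value here therefore covers spread between samples that could be technical. P1, P7 and P14 had 2 AT2 samples each and P28 had 3. The other samples used here were 4 AT2 samples from before birth (embryonic days 16.5 and 18.5) and 7 samples of lung endothelial cells (EC, sorted on CD31) of the same postnatal stages, with 1 EC sample at P1 and 2 at each of P7, P14 and P28.

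MicroRNAs are short RNAs that guide a silencing complex to messenger RNAs carrying a match to their seed, and so lower the output of many genes at a time. Cells that leave a proliferating, fetal state commonly exchange 1 set of microRNAs for another. The panel was a NanoString nCounter assay, which counts barcoded probes without amplification. Its rows carry microRNA accession numbers (MIMAT numbers) that neither the deposited table nor the reference tables used here pair with names or sequences. MicroRNAs are therefore given by identifier, at most 2 that rose and 2 that fell in each comparison, and their sequences, seeds and family names are not given. A check of the sorted cells by named epithelial microRNAs could not be made for the same reason.

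The values are a signal, the counts of a sample times 1 factor for that sample. MicroRNA counts ranged from 132158 to 559434 in the early samples and from 26640 to 496523 in the late ones, the lowest being P28 replicate 1. In that sample all 8 negative control rows stood at 1 count, so its background limit (the mean plus 2 SD of those rows) is 1 count. Between 238 and 281 microRNAs were above the limit in early samples and between 196 and 244 in late ones. The 244 belong to P28 replicate 1 with its limit of 1 count, and the other late samples had 196 to 233. The mean scaled background was higher late (4.04 to 8.20) than early (2.53 to 4.28). Of the 602 microRNAs of the panel, 302 were above background in at least 2 of the 23 samples and were tested. With no filter, 248 microRNAs that were above background in no sample had a median late-minus-early log2 change of 0.62, and 6 of them (2.42%) passed the threshold as higher late and 0 as lower (limma, 248 of the rows tested).

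The microRNA content of AT2 cells changed broadly between the first postnatal week and weeks later. As scaled by the authors, about as many microRNAs were called higher late as lower. That balance depended on the scaling, with 4 rises and 43 falls when samples were scaled to the total microRNA signal. This total was uneven, since MIMAT0003484 alone held 62.8% of it in P28 replicate 3 and 34.0% in P1 replicate 2. Scaling to the ligation controls, which does not use that total, gave 3 rises and 39 falls. As scaled by the authors, 78 (25.8%) of the 302 tested differed, 38 (12.6%) that rose and 40 (13.2%) that fell (limma, Benjamini-Hochberg adjusted p under 0.05). The falls were larger: the median log2 change of the called microRNAs was -1.73 for those that fell and 1.20 for those that rose, against 0.28 over all tested microRNAs. Changes of 2-fold or more made up 39 of the 40 falls and 24 of the 38 rises. Changes of 4-fold or more made up 7 and 3.

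**Figure D1:**
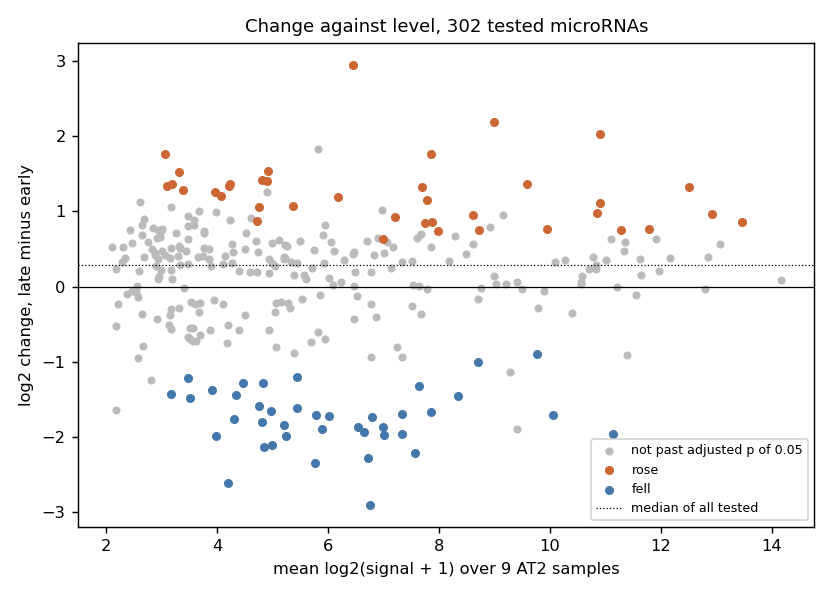
Fitted log2 change from early to late (y) against the mean log2(signal + 1) over the 9 AT2 samples (x), 1 point per tested microRNA. The 38 that rose lie from 0.63 to 2.95, the 40 that fell from -0.89 to -2.90, and the median of all 302 lies at 0.28.

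MIMAT0003475 had the largest rise. Its signal was 11.6 and 16 at P1 and 43.2 and 64.5 at P7, then 104 and 459 at P14 and 178, 344 and 155 at P28. All 5 late samples lay above all 4 early ones, with a mean of 248 ± 148 (SD, n = 5) against 33.8 ± 24.8 (SD, n = 4). The log2 change was 2.95 ± 0.39 (SE), a 7.72-fold rise (limma, adjusted p = 5.99e-05).

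MIMAT0000536 rose at each stage. It read 141 and 191 at P1, 234 and 276 at P7, 566 and 489.6 at P14, and 1405, 1933 and 1646 at P28, so that no stage overlapped the one before it. The mean was 211 ± 57.8 early and 1208 ± 649 late (SD, n = 4 and 5), a log2 change of 2.18 ± 0.24 (limma, adjusted p = 1.28e-05). In the 4 AT2 samples from before birth it stood between 86.7 and 128, below every postnatal AT2 sample. The rise was not confined to AT2 cells: in EC the log2 change was 1.40 ± 0.28 (SE), with 1899 and 1935 at P28.

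MIMAT0009455 had the largest fall among the microRNAs whose early and late samples did not overlap. The largest fall of all, -2.90 ± 0.71 for MIMAT0000766 (limma, adjusted p = 0.00637), came with overlapping samples and is described with P7 and P28. The signal of MIMAT0009455 was 97.3 and 102 at P1, 26.3 and 25.5 at P7, 20.2 and 6.23 at P14, and 7.43, 1.5 and 8.35 at P28. All early samples were above background and lay above all late ones, of which 1, P14 replicate 1, was above its limit. The log2 change was -2.62 ± 0.42 (limma, adjusted p = 0.0002). With those 4 late samples below background raised to the limit, the fall was at least 3.85-fold between geometric means. Before birth the signal was between 211 and 354.

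MIMAT0001420 fell at each stage, from 272 and 167 at P1 and 89.6 and 97.0 at P7 to 49.3 and 43.05 at P14 and 7.43, 26.25 and 19.1 at P28. Again the 5 late samples lay below the 4 early ones (29.0 ± 17.2 against 157 ± 84.7, SD), with a log2 change of -2.34 ± 0.31 (limma, adjusted p = 5.99e-05). P28 replicates 1 and 3 were below background, and with these at their limits the fall was at least 5.80-fold. This bound weights samples equally and adds no pseudocount, whereas the fitted change weights stages equally on log2(signal + 1).

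**Figure D2:**
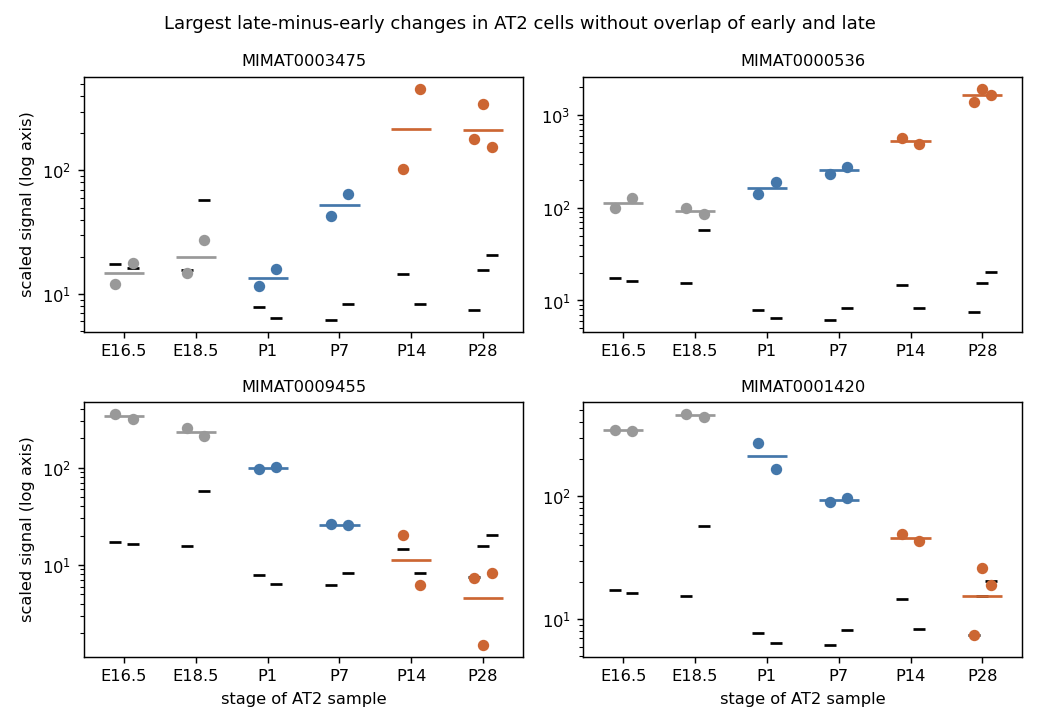
Scaled signal (log axis) of the 4 microRNAs in every AT2 sample by stage, with coloured bars at geometric means and black dashes at each sample's background limit. MIMAT0003475 and MIMAT0000536 are higher in all late (orange) than in all early (blue) samples, MIMAT0009455 and MIMAT0001420 lower, and grey points are the samples from before birth.

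Each of these 4 changes kept its direction and its call under all 28 alternatives tried, which included leaving out each of the 9 samples. Since the 4 were chosen for early and late samples that do not overlap, leaving out a sample could not reverse their direction. Among all 302 tested microRNAs, 32 (10.6%) had all late samples above all early ones and 16 (5.3%) had all late samples below. Of the called microRNAs, 28 of the 38 rises and 14 of the 40 falls were separated in this way.

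The steps between stages are described here for the rises and the falls, from the same values that called them. Whether timing differed between the rises and the falls was not tested. The P1 and P14 samples carry the title prefix LMM.16 and the P7 samples LMM.15. What the prefix stands for is not given in the labels. In the steps into P7 and into P14, stage and prefix therefore cannot be told apart. Among the 38 rises the largest step between successive stage means was the one into P14 for 19, into P28 for 11 and into P7 for 8. The median steps were 0.23 into P7, 0.80 into P14 and 0.57 into P28, beside -0.28, 0.15 and 0.20 over all tested microRNAs. Among the 40 falls the largest step was the one into P7 for 20, into P28 for 15 and into P14 for 5, with medians of -1.32, -1.07 and -0.57. A steady course through all 4 stages was seen for 24 of the rises and 31 of the falls. Over all 6 stages, 37 of the 40 falls had their lowest mean at P28, and 25 had their highest mean before birth. Of the 38 rises, 30 had their highest mean at P28. Late extremes are favoured by the call itself, which sets P14 and P28 against P1 and P7 and weights the step into P14 most. The counts of steps, courses and extremes were not set beside shares over all tested microRNAs. The P1 mean lay below both embryonic means for 18 of the rises and above both for 16.

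**Figure D3:**
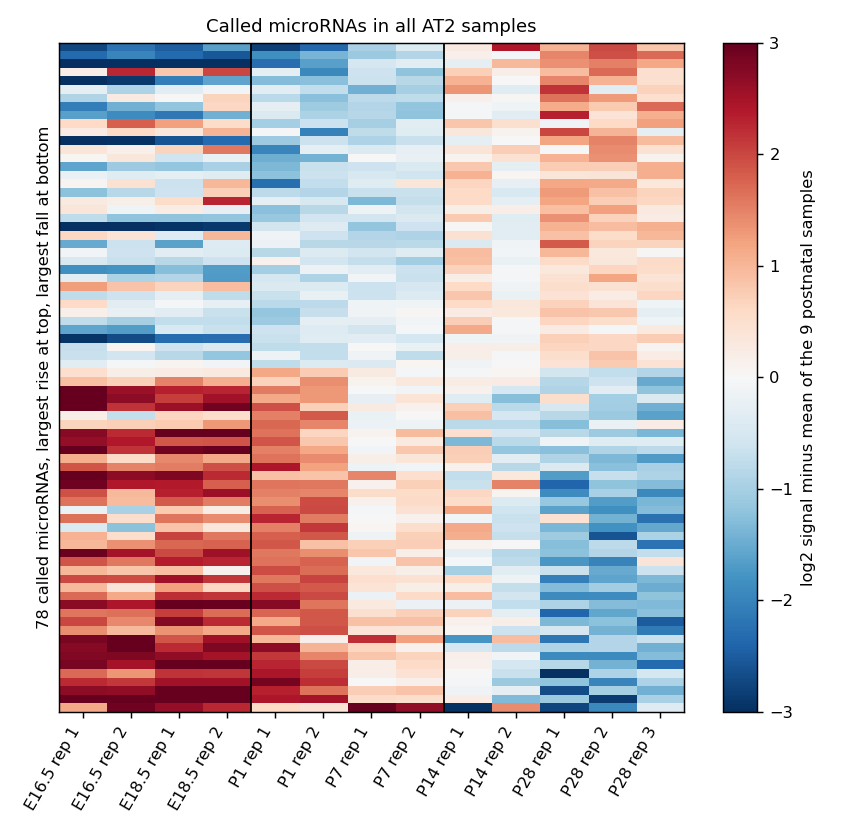
Log2(signal + 1) of the 78 called microRNAs (rows, largest rise at the top) in the 13 AT2 samples (columns by stage), relative to the mean of the 9 postnatal samples. Most falling rows are high before birth and at P1 and lowest at P28, where 37 of the 40 have their lowest mean, and 30 of the 38 rising rows have their highest mean there. The call itself, late against early, favours late extremes.

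The rises depended on the scaling and on single samples more than the falls did. The called counts were 60 rises and 39 falls with every sample shifted to 1 median, 24 and 54 with edgeR on the recovered counts, 13 and 29 with background subtracted, 4 and 43 with scaling to the total microRNA signal, and 3 and 39 with scaling to the ligation controls. The median over all tested microRNAs moved with these from -0.15 to 0.43. No called rise became a fall and no called fall became a rise under any alternative. The rises numbered 25 without P1 replicate 2, 18 without P7 replicate 1, 17 without P7 replicate 2 and 14 without P14 replicate 1, and the falls stayed between 33 and 43. All 40 falls were above background in every early sample. Of the rises, 31 were above background in every late sample, and 4 were above it in no early sample. These 4 were above background in only 2 or 3 of the late samples, so their signal was near background on both sides. The part of the higher late background in these rises was not tested, beyond the 13 rises that remained with background subtracted.

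The late-minus-early difference can be split into P14 minus P1 and P28 minus P7, which share no sample. Both splits keep the form of the specimen ID in the titles, since the IDs of P7 and P28 end in a letter and those of P1 and P14 do not. The title prefix is mixed in P28. P28 replicate 3 carries LMM.16, while the other P28 samples and both P7 samples carry LMM.15. From P1 to P14, 28 microRNAs changed (9.27%), 8 that rose (2.65%) and 20 that fell (6.62%, limma). From P7 to P28, 64 changed (21.2%), 34 that rose (11.3%) and 30 that fell (9.93%, limma). The shared calls numbered 19, which are 67.9% of the first list and 29.7% of the second. All 19 moved the same way in both, 5 that rose and 14 that fell. Across the 302 microRNAs the changes correlated with r = 0.41 (Spearman rho = 0.35, a description across microRNAs that share a sample's scaling), and 190 (62.9%) had the same sign.

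From P1 to P14 the largest rises were MIMAT0003475, at 3.91 ± 0.58, and MIMAT0000530, at 2.31 ± 0.41 on the log2 scale (limma, adjusted p = 0.000523 and 0.00182). MIMAT0000530 read 389 and 621 at P1, 1346 and 1519 at P7, 1573 and 3772 at P14, and 4936, 5447 and 4242 at P28. It was thus higher at P14 than in any early sample, and higher again in all P28 samples. The largest falls were MIMAT0001091 (-3.12 ± 0.47) and MIMAT0009455 (-3.02 ± 0.61, limma, adjusted p = 0.000523 and 0.00567). MIMAT0001091 read 774 and 489 at P1, and had already reached 105 and 115 at P7, close to the 102 and 47.8 of P14. At P28 it stood at 44.6, 25.5 and 54.9. With P14 replicate 2, which was below background for MIMAT0009455, at its limit, that fall was at least 7.67-fold. Without P1 replicate 1, MIMAT0000530 and MIMAT0009455 lost their calls (limma, adjusted p = 0.067 for both), and without P14 replicate 2 MIMAT0009455 lost it (limma, adjusted p = 0.075). Scaling to the total ended the call of MIMAT0000530 (limma, adjusted p = 0.0546). Scaling to the ligation controls ended those of MIMAT0000530, MIMAT0001091 and MIMAT0009455 (limma, adjusted p = 0.163, 0.142 and 0.142). Without P14 replicate 1 the log2 changes of MIMAT0003475, MIMAT0000530 and MIMAT0009455 were 4.98, 2.94 and -3.80, and without P14 replicate 2 they were 2.84, 1.68 and -2.25. The count of 28 became 2 without P1 replicate 1 and 17 without P14 replicate 2. The split of rises and falls was 22 and 14 with the median shift and 8 and 11 with quantile normalization.

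From P7 to P28 the largest rises were MIMAT0003470 (3.94 ± 0.82) and MIMAT0000536 (2.69 ± 0.32, limma, adjusted p = 0.00427 and 4.71e-05). MIMAT0003470 had a course of its own, with 33.6 and 25.0 at P1, 4.43 and 12.3 at P7, 8.85 and 11.9 at P14, and 81.8, 40.5 and 645 at P28. P7 replicate 1 and P14 replicate 1 were below background. The P7 sample at its limit gives a rise of at least 14.8-fold, which leans on P28 replicate 3: the log2 change was 2.79 without that sample, 4.77 without P28 replicate 2, 3.30 without P7 replicate 1 and 4.59 without P7 replicate 2. From early to late as a whole it did not pass (log2 1.26 ± 0.61, limma, adjusted p = 0.152). Its lowest stages were P7 and P14, and its P1 values lay between those and P28. The largest falls were MIMAT0000766 (-4.52 ± 0.96) and MIMAT0000229 (-2.96 ± 0.73, limma, adjusted p = 0.00427 and 0.0113). Both had their highest postnatal mean at P7. MIMAT0000766 read 161 and 141.5 at P1, 845 and 679 at P7, 12.6 and 286 at P14, and 14.9, 27 and 81.1 at P28. Without P28 replicate 3 its change was -5.17. MIMAT0000229 read 74.15 and 40.9, then 173 and 88.25, then 10.1 and 70.4, and last 7.43, 19.5 and 22.7. It was below background in P14 replicate 1 and P28 replicate 1, and with the latter at its limit the fall from P7 to P28 was at least 8.32-fold. Before birth it was higher still in places, at 139.8 to 648.

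The count of 64 became 6 without P7 replicate 1, 14 without P7 replicate 2 and 37 without P28 replicate 2. Without P7 replicate 1, MIMAT0003470, MIMAT0000766 and MIMAT0000229 kept their direction and lost their calls (limma, adjusted p = 0.0791, 0.0599 and 0.117). The split was 3 rises and 49 falls with scaling to the total, 1 and 58 with the ligation controls, 26 and 50 with edgeR, 21 and 31 with quantile normalization and 11 and 26 with background subtracted.

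**Figure D4:**
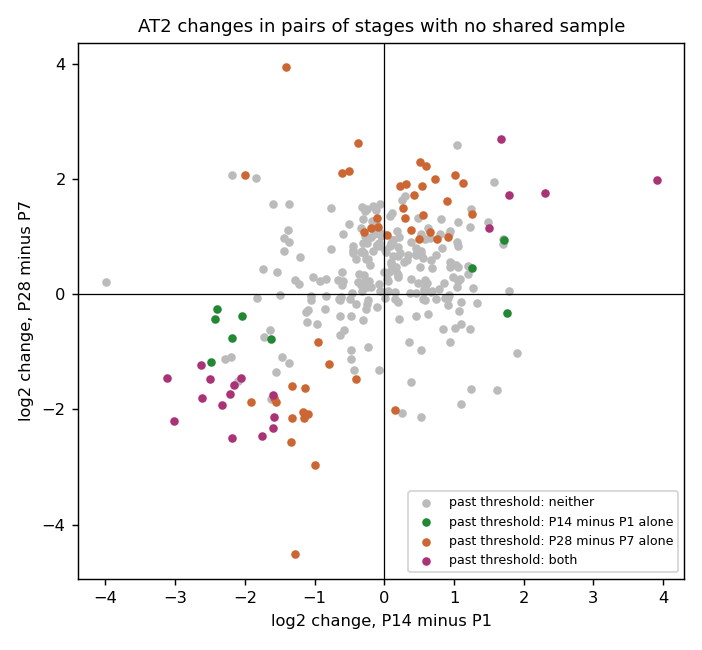
Log2 change from P7 to P28 (y) against that from P1 to P14 (x) in AT2 cells, 1 point per tested microRNA, coloured by which of the comparisons passed the threshold. The 19 that passed in both lie in the lower left (14) and upper right (5), and 0 had opposite signs.

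The P7 samples and P14 replicate 2 also carried more of the microRNAs that mark EC in this series. MIMAT0000138, which took 23.4% to 44.9% of the microRNA signal in the 10 EC samples, took 7.81% and 6.47% in the P7 samples and 5.76% in P14 replicate 2. In the other AT2 samples it took 1.03% and 0.576% (P1), 0.16% (P14 replicate 1) and 0.604%, 0.698% and 1.74% (P28). A list of 13 microRNAs at least 4-fold higher in EC than in AT2 samples before birth, of which 7 were above background in all 9 samples, summed to 0.78% to 9.53% of the signal early and 0.486% to 6.97% late, and to 25.7% to 49.9% in EC. MIMAT0000138 is on this list. Without it the sum was 1.71% and 1.27% in the P7 samples, 1.20% in P14 replicate 2 and 0.203% to 0.570% in the other AT2 samples. The list holds 2 of the 38 rises and 1 of the 40 falls, 3 called of 13, beside 25.8% called over all tested microRNAs. In the 7 postnatal EC samples MIMAT0000766 read 724 to 10531 and MIMAT0000229 read 64.4 to 551. At P7 both were higher in EC than in AT2 cells. MIMAT0000766 read 10531 and 8427 in EC against 845 and 679 in AT2 cells, and MIMAT0000229 read 551 and 400 against 173 and 88.25. The part of EC microRNAs in their change was not tested. Without P14 replicate 2, 34 microRNAs rose and 38 fell from early to late, and without P7 replicate 1, 18 and 37.

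Samples resembled their own stage, apart from P14 replicate 2. For 8 of the 9 samples the highest correlation over the 302 microRNAs was with another sample of its stage, while P14 replicate 2 correlated best with P7 replicate 2 (r = 0.977, across microRNAs) rather than with P14 replicate 1 (r = 0.935). P1 samples correlated with P7 samples at 0.923 to 0.944, with P14 samples at 0.903 to 0.919 and with P28 samples at 0.836 to 0.857. The direct step from P7 to P14 gave 0 calls (0%) with limma, where 22 microRNAs had an unadjusted p under 0.05, and 0 with edgeR. Without P14 replicate 2 it gave 9 calls, and without P14 replicate 1 it gave 1. From P1 to P7, 2 microRNAs changed (0.662%), both lower at P7, and from P14 to P28, 6 changed (1.99%), 2 that rose (0.662%) and 4 that fell (1.32%, limma).

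The microRNA with the highest mean share of the signal over the 9 samples was uneven between samples of a stage. MIMAT0003484 took 7.85% and 34.0% of the signal at P1, 3.31% and 12.4% at P7, 5.95% and 3.83% at P14, and 5.39%, 7.75% and 62.8% at P28. The early and late samples overlapped (log2 change 0.09 ± 0.78, limma, adjusted p = 0.949). MIMAT0000121 was second by mean share, at 4.36% to 5.79% of the signal early and 3.60% to 9.53% late. It exceeded MIMAT0003484 in 4 of the 9 samples (P7 replicate 1, both P14 samples and P28 replicate 1), and MIMAT0000138 exceeded it in both P7 samples. It rose by a log2 of 0.86 ± 0.24 as scaled by the authors (limma, adjusted p = 0.011). At least 9 microRNAs were needed to reach 50% of the signal in 7 of the samples, 6 in P1 replicate 2 and 1 in P28 replicate 3.

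EC of the same stages changed in much the same directions. From P1 and P7 (3 samples) to P14 and P28 (4 samples), 18 microRNAs changed in EC (5.96%), 7 that rose (2.32%) and 11 that fell (3.64%, limma). Of the 38 rises of AT2 cells, 36 had a positive change in EC and 5 were called there. Of the 40 falls, 36 had a negative change in EC and 9 were called. The mean scaled background in EC was 6.16 to 12.8 early and 11.05 to 35.5 late. Between 196 and 233 microRNAs were above the limit in early EC samples and between 137 and 178 in late ones. The median log2 change in EC over all tested microRNAs was 0.28. The part of the higher late background in the shared positive signs was not tested. Over all tested microRNAs 227 (75.2%) had the same sign in both cell types, with r = 0.66 and Spearman rho = 0.61, a description across microRNAs whose EC and AT2 samples partly carry the same specimen IDs. The difference between the cell types passed for 1 of 302 (0.331%), MIMAT0000530, with 35 at an unadjusted p under 0.05. In EC it read 762 at P1, 1846 and 1564 at P7, 1163 and 1114 at P14, and 710 and 1448 at P28. Of the 4 late EC samples, 3 lay within the range of the early ones and P28 replicate 1 lay just below it. AT2 cells changed by 2.03 ± 0.28 and EC by -0.08 ± 0.32, a difference of 2.12 ± 0.42 (limma, adjusted p = 0.0299). The difference kept its sign in all 24 alternatives, from 1.80 to 2.43, and its call in 13. It lost the call without P1 replicate 1, without either P7 sample and without P28 replicate 1 or 2. With edgeR the adjusted p was 0.131.

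**Figure D5:**
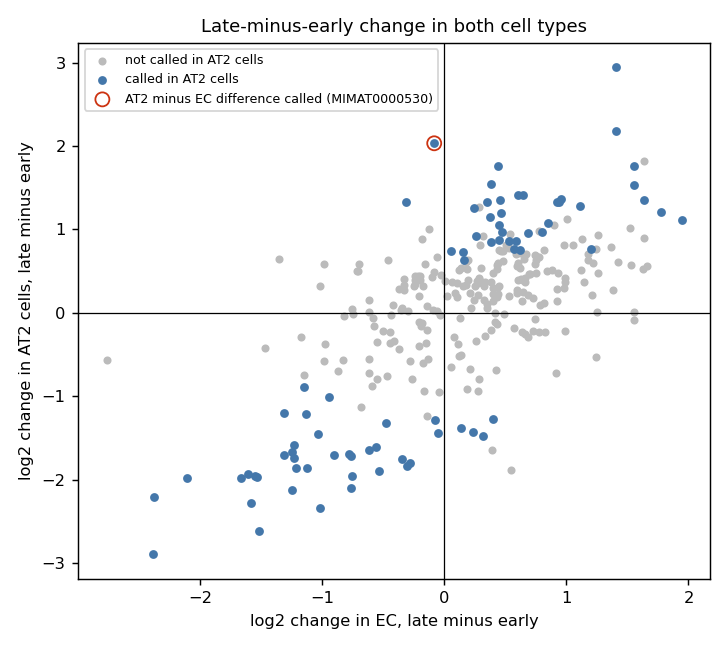
Log2 change from early to late in AT2 cells (y) against the same change in EC (x), 1 point per tested microRNA. The called AT2 microRNAs lie mostly where both signs are equal (36 of 38 rises, 36 of 40 falls), and the circled MIMAT0000530 lies at 2.03 in AT2 cells and -0.08 in EC.

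The panel also reads messenger RNAs of 4 housekeeping genes, here relative to the microRNA scaling. B2m, which encodes beta-2 microglobulin, read 22.0 and 5.96 at P1, 47.9 and 75.1 at P7, 133 and 99.2 at P14, and 89.2, 210.03 and 72.75 at P28. P28 replicate 3 lay below P7 replicate 2, and the other late samples were above all early ones. The log2 difference was 2.03 and did not pass (exact permutation test, two-sided, p = 0.0317, adjusted p = 0.127 over 4 genes; the smallest p for 5 against 4 samples is 0.0159). P1 replicate 2 was below its background limit of 6.43, and without it the difference was 1.36 (exact permutation test, adjusted p = 0.286). Gapdh, a glycolytic enzyme, differed by 0.82, Actb, cytoplasmic beta-actin, by 0.53, and Rpl19, a large-subunit ribosomal protein, by 0.18 (exact permutation tests, adjusted p = 0.381, 0.381 and 0.778). Gapdh too was below the limit in P1 replicate 2, at 6.36, and without that sample it differed by 0.35. Bulk values of this kind cannot tell fewer cells of a type from less RNA per cell.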

How the data were processed

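Per the labels' protocols, RNA from sorted lung cells went onto an nCounter panel of mouse microRNAs. A genome build, mm10, is listed in the submitters' processing notes. How samples were scaled is not given in the sources used here. What the authors deposited is a scaled signal per probe: 99.98% of 13861 microRNA, ligation control and messenger RNA values above 1 were whole counts times 1 factor per sample (tolerance 0.1, 3 were not). ERCC control rows are unscaled, and their 8 low rows served as negative controls.

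The test was limma 3.58.1 (R 4.3.3; intensity trend) on log2(signal + 1) with 1 mean per group over all 23 samples and stage means weighted equally. Fold changes on that scale understate changes of low microRNAs. P-values are two-sided, adjusted over the 302 tested microRNAs, with 0.05 as the threshold. Alternatives included edgeR 4.0.16 and its quasi-likelihood test, run on recovered whole counts, other scalings, filters and covariates, and each sample left out. The code was tested on simulated data. Named microRNAs are the 2 largest changes per direction that passed, did not overlap and were above background throughout the higher side. MIMAT0000138, MIMAT0003484 and MIMAT0000121 were named for their share of the signal, the first after values were seen. Of 25 microRNA lists fixed by name, 0 could be matched, since 0 of 602 identifiers are in the reference tables. Messenger RNA rows were named through RefSeq accessions (4 of 4). The comparison and lists were chosen with earlier results of these data known.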

Additional observations from a re-analysis of the deposited data

Results flagged for a closer look

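In the late AT2 samples, MIMAT0003484 was far higher in P28 replicate 3 than in the others. The gap to the next sample was 0.77 of the range of its log2 signal and 0.933 of the range of its share. Among the early samples, Rpl19 was lowest in P7 replicate 1 (165, against 543 to 659 in the other 3), a gap of 0.86 of the range on the log2 scale. Of 34 sets of early or late samples examined, chance alone would flag about 1 in 20. MIMAT0000530 changed differently in AT2 cells and EC, by 2.12 on the log2 scale in the test of the difference itself (limma, adjusted p = 0.0299).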

How the results depend on the processing

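The 40 falls stayed within 1.5 times that count under every alternative run (27 to 54). Left-out AT2 samples gave 33 to 43 falls, 14 to 45 rises, 2 to 29 changes from P1 to P14, 6 to 66 from P7 to P28, 0 to 9 from P7 to P14 and 0 to 2 differences between AT2 cells and EC. The 38 rises became 60 with the median shift, 4 with total scaling, 3 with ligation control scaling, 24 with edgeR, 13 with background subtracted, 24 with 2 means over the 9 AT2 samples and 18 within the title prefix LMM.16 (37 within LMM.15). The 28 changes from P1 to P14 became 5 with total scaling, 1 with ligation controls and 12 with background subtracted, and edgeR gave 42. The 64 from P7 to P28 became 37 with background subtracted and 116 with array weights. The 1 difference between the cell types became 0 with the median shift, quantile normalization, total scaling, ligation controls, edgeR and no trend, 2 with a pseudocount of 10 or without EC P14 replicate 2, and 6 with a common floor. Rpl19 turned to -0.29 with total scaling and -0.44 with ligation controls, and ranged from -0.29 to 0.52 over left-out samples. Actb turned to -0.088 with ligation controls. The causes were not tested. No paired analysis was possible because, between AT2 stages, the labels give no replicate numbers and no specimen ID is shared; AT2 and EC samples do share some, and with the specimen as a random block the difference for MIMAT0000530 was 2.11 (limma, adjusted p = 0.0126). Ligation control scaling, the random specimen block (38 rises, 40 falls) and the fit without EC P14 replicate 2 were chosen after seeing the data. Depth limits P28 replicate 1 most, where 1 count is worth a signal of 7.43.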

Other observations

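The ligation controls, spiked at the ligation step, give a second view of the microRNA content. MicroRNA signal per ligation control signal was 4.61 and 14.8 at P1, 6.88 and 7.92 at P7, 12.4 and 8.60 at P14, and 5.36, 3.03 and 10.2 at P28, so that early and late samples overlapped. The ratio includes MIMAT0003484, which held 34.0% of the microRNA signal in P1 replicate 2 (14.8) and 62.8% in P28 replicate 3 (10.2). A ratio without that microRNA was not computed. Of the 302 tested microRNAs, 27 had the highest of their 4 postnatal AT2 stage means at P7.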
